A study of Bos taurus with 31 samples.

Results

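The genes described here encode the proteasome and its partners of the same gene families. They were chosen by name: every row of the count table whose symbol begins PSMA, PSMB, PSMC, PSMD, PSME, PSMF or PSMG, with identical rows taken once. This gave 47 genes of 14084 rows, or of 13407 distinct loci. They were split into 14 genes of the core particle (PSMA1 to PSMA7 and PSMB1 to PSMB7), 20 of the regulatory cap (PSMC1 to PSMC6 and PSMD1 to PSMD14), 5 of the immunoproteasome (PSMB8, PSMB9, PSMB10, PSME1 and PSME2) and 8 others. The 8 others were PSME3, PSME4, PSMF1, PSMG1 to PSMG4 and PSMC3IP. PSMC3IP matched by its symbol alone: it encodes a cofactor of homologous recombination and is no part of the proteasome, which leaves 46 proteasome genes.

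RNA was sequenced from epithelial organoids of the mammary gland, which are clumps of epithelium recovered after collagenase, trypsin and hyaluronidase digestion of a biopsy once single cells are spun away. The 15 virgin libraries came from biopsies of dairy cows at 14 months of age, and the 16 lactating libraries from the same cows at 40 to 60 days of lactation; 15 of the 16 cows gave both. No treatment or genetic change is named for either group, and no breed. A library is named here by V for virgin or L for lactating and the number of the cow. Stage cannot be told apart from age, calving or the time of sampling, since every lactating biopsy was the later one.

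The proteasome is the protease that degrades most short-lived and damaged proteins once they carry ubiquitin. A barrel-shaped core with rings of alpha (PSMA) and beta (PSMB) subunits holds the active sites, and a regulatory cap of ATPases (PSMC) and non-ATPase subunits (PSMD) binds ubiquitin, removes it and unfolds the substrate. Interferon induces PSMB8, PSMB9 and PSMB10, which replace the catalytic subunits PSMB5, PSMB6 and PSMB7 in newly built cores, and PSME1 and PSME2, which form an alternative cap. The resulting immunoproteasome favours peptides that fit MHC class I molecules; leukocytes hold it constitutively and epithelial cells under cytokine stimulation.

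With each locus counted once, total counts were 12477568 to 38794104 in virgin and 17637505 to 45478555 in lactating libraries. All 47 genes passed the filter on low counts. Levels are CPM, counts relative to library totals that were scaled by TMM factors, and differences are log2 fold changes, lactating minus virgin, from edgeR's quasi-likelihood test, called at a Benjamini-Hochberg adjusted p under 0.05 over all 12472 tested loci. The epithelial genes EPCAM (213 to 1217 CPM) and KRT8 (266 to 3634 CPM) were present in every library. V479 stood apart: among virgin libraries it was highest for 28 of the 47 genes and lowest for 11, and it had the smallest total. For each locus, its deviation from the median of the other virgin libraries was taken. Over all loci these deviations had a rank correlation of -0.409 with the genomic length of the locus. V581 came next among virgin libraries, at -0.208. Its median log2 deviation was 0.46 over core and 1.31 over immunoproteasome genes, against 0.88 and 1.84 in V479. Milk protein genes held only 0.243% of counts in L538 and 0.577% in L478, against a lactating median of 31.2%.

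Most proteasome genes differed little between the stages, and where they differed they were mostly lower in lactation. Of the 47 genes, 14 were lower, 1 was higher and 32 were not called. Over all tested loci 31.3% were lower and 23.8% higher, so the share of genes called lower (29.8%) was near that of all loci and the share called higher (2.13%) was below it. The sizes were small: 41 of 47 genes (87.2%) had a log2 fold change within 0.5 of 0, against 54.7% of all loci, and 0 of 47 changed by more than 2-fold on the fitted scale, against 2397 loci in the table. The median size of the log2 fold change was 0.20 over the 47 genes and 0.44 over all loci. The median signed change was -0.15, beside -0.09 for all loci. Without V479, 5 genes were called higher (PSMA7, PSMB8, PSMB10, PSMD5 and PSMF1) and 14 lower, and without L478 and L538, 1 higher and 15 lower. The counts also depended on scaling: with raw library totals in place of TMM factors, which moves the median of all loci by -0.465, 39 of the 47 genes were called lower and 0 higher, against 57.9% of all loci lower and 10.3% higher.

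**Figure D1:**
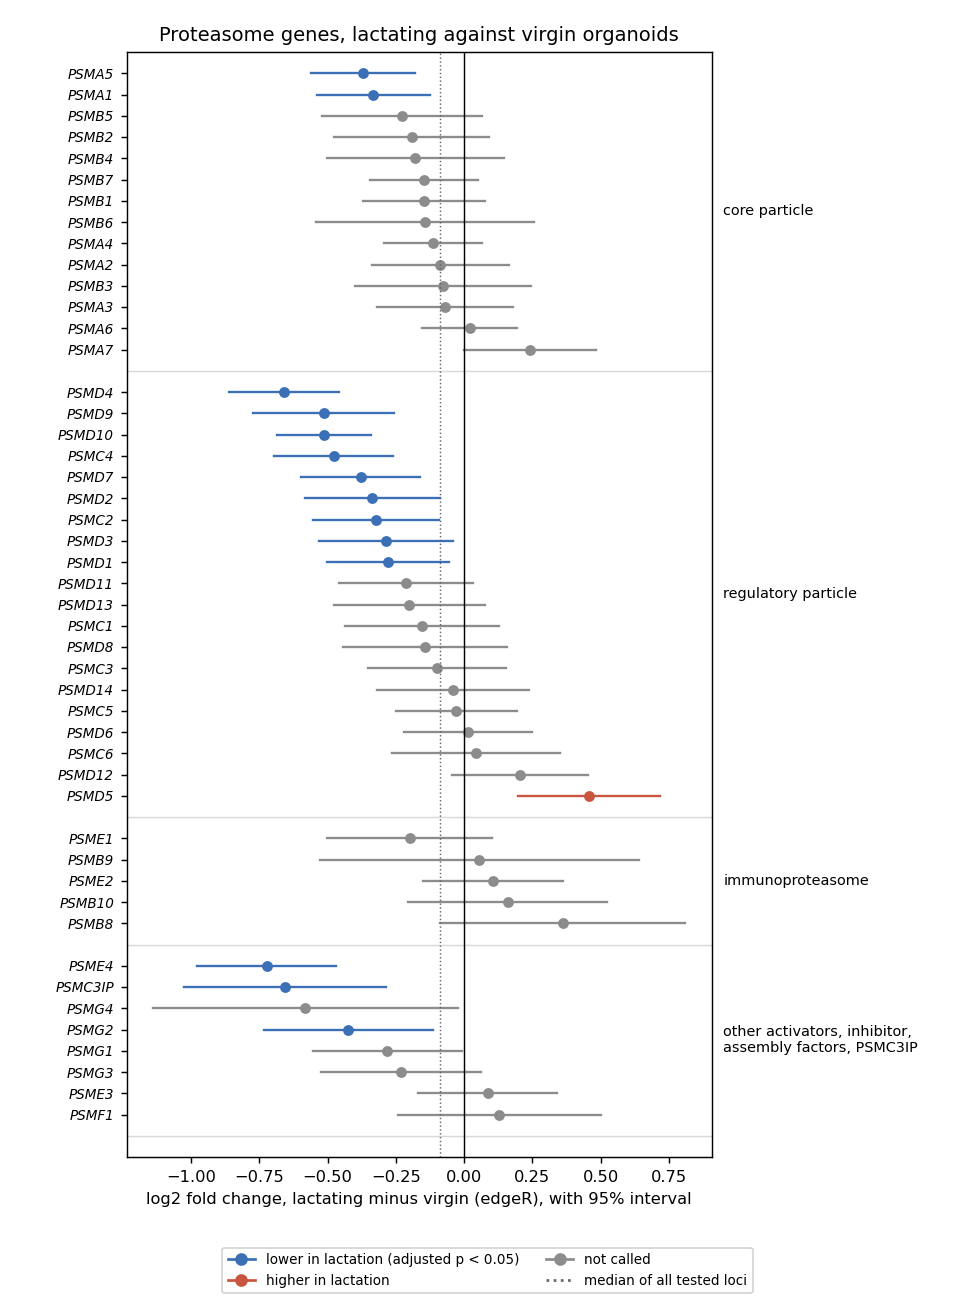
Log2 fold change, lactating minus virgin, of each of the 47 genes on the horizontal axis (points, edgeR; bars, 95% interval), grouped by class and coloured by call; the dotted line is the median of all tested loci. The 14 genes called lower, 9 of them in the regulatory cap, lie between -0.28 and -0.72, and PSMD5 at 0.46 is the 1 gene called higher.

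In the core particle, 2 of 14 genes (14.3%) were called lower and 0 higher, with a median log2 fold change of -0.14. Both shares were below those of all loci, 31.3% lower and 23.8% higher. The genes called lower were 2 alpha subunits, which form the outer rings that gate the entry to the core. PSMA5 (ENSBTAG00000020641) lay between 27.7 and 56.6 CPM in virgin libraries (median 38.8) and between 23.3 and 38.9 CPM in lactating ones (median 30.03). The stages overlapped, but 7 virgin libraries exceeded every lactating one, with V509, V610 and V468 the highest. Its log2 fold change was -0.37 ± 0.09 (SE; edgeR adjusted p = 0.00124), and 14 of 15 cows were lower in lactation. PSMA1 fell by 0.33 on the log2 scale (SE 0.10; edgeR adjusted p = 0.00633), from a virgin median of 190 to a lactating median of 140 CPM. Its counts are also listed under the neighbouring gene COPB1, a subunit of the coatomer of Golgi vesicles, and the locus is 4.27 times the RefSeq length of PSMA1, so reads of the 2 genes cannot be told apart.

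The other 12 core genes were not called. The 95% intervals of these 12 all lay between -0.54 and 0.48. PSMB5, PSMB6 and PSMB7, which carry the chymotrypsin-like, caspase-like and trypsin-like sites, stood at log2 fold changes of -0.23 ± 0.14, -0.14 ± 0.20 and -0.15 ± 0.10 (SE). PSMB7 had medians of 37.8 CPM in virgin and 38.2 CPM in lactating libraries, over ranges of 29.7 to 63.1 and 29.7 to 45.8. V479 was the highest virgin library for all 7 PSMB genes of the core and for PSMA7, and the lowest for PSMA1 to PSMA4. Without it the log2 fold change of PSMB6 was 0.16 and that of PSMB5 was -0.05, neither of them called.

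PSMA7, an alpha subunit, was the core gene nearest to a call in the higher direction. It lay between 31.9 and 94.0 CPM in virgin (median 48.6) and between 44.0 and 74.8 CPM in lactating libraries (median 59.9). It was higher in lactation in 13 of 15 cows, with V479 and V581 the highest virgin libraries. The log2 fold change was 0.24 ± 0.12 (SE; edgeR adjusted p = 0.0835). With the cow as a block it was 0.28 (adjusted p = 0.0444), and without V479 it was 0.34 (adjusted p = 0.00298). The median of all loci was -0.009 in the block fit and -0.089 in the main one.

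In the regulatory cap, 9 of 20 genes (45.0%) were called lower and 1 higher, beside 31.3% and 23.8% of all loci, with a median log2 fold change of -0.21. The cap subunits called lower were the ATPases PSMC2 and PSMC4, the base subunits PSMD1, PSMD2 and PSMD4, and the lid subunits PSMD3 and PSMD7. The other genes called lower, PSMD9 and PSMD10, and the 1 called higher, PSMD5, encode assembly chaperones. These are counted with the cap by their symbols and are not subunits of it.

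PSMD4 (ENSBTAG00000006101), a receptor by which the cap binds ubiquitin chains, was the most clearly separated of all 47 genes. It lay between 36.1 and 90.8 CPM in virgin libraries (median 46.6) and between 27.8 and 35.9 CPM in lactating ones (median 30.7). The highest lactating library, L598, was below the lowest virgin one, V502, so the stages did not overlap, and all 15 cows were lower in lactation. PSMD4 fell by 0.66 on the log2 scale (SE 0.10; edgeR adjusted p = 1.69e-06), and without V479, its highest virgin library, by 0.57 (adjusted p = 5.45e-08). Of the 47 genes it alone had every lactating library below every virgin one, a pattern held by 0.762% of all tested loci. Its lactating SD of log2 CPM, 0.11, was the smallest of the 47 genes, against 0.33 in virgin libraries.

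The ATPase and base genes fell by less. PSMC4 (ENSBTAG00000009414), an ATPase of the ring that unfolds substrates, ranged from 22.9 to 61.0 CPM (median 34.0) in virgin and from 19.5 to 33.0 CPM (median 25.5) in lactating libraries. It was lower in lactation in 15 of 15 cows although the ranges overlapped, and it fell by 0.48 on the log2 scale (SE 0.11; edgeR adjusted p = 3.32e-04). The ATPase PSMC2 fell by 0.32 (adjusted p = 0.0167), while PSMC1, PSMC3, PSMC5 and PSMC6 stood at -0.15, -0.10, -0.03 and 0.04 and were not called. PSMD1 (-0.28, adjusted p = 0.0316) and PSMD2 (-0.34, adjusted p = 0.0188), the large scaffold subunits of the base, were called lower. With the cow as a block the adjusted p of PSMD2 was 0.0623. The call of PSMD1 was lost when any of 9 single libraries was left out (L468, L490, L507, L581, V468, V507, V531, V598 or V615; highest adjusted p 0.0963), and that of PSMC2 without L581, V468 or V598 (highest 0.0622).

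Among the lid genes, PSMD7, the partner of the deubiquitinating subunit PSMD14, ranged from 76.2 to 138 CPM in virgin (median 96.6) and from 55.5 to 113 CPM in lactating libraries (median 71.1). Its log2 fold change was -0.38 ± 0.11 (SE; edgeR adjusted p = 0.00347), with 5 lactating libraries inside the virgin range. Its locus is 5.61 times the RefSeq length, so counts of a neighbour may be joined there. PSMD3 was called at -0.28 (adjusted p = 0.0451), but not with the cow as a block (adjusted p = 0.109), without V479 (-0.16, adjusted p = 0.0993) or without any of 18 other single libraries. PSMD14 itself, at -0.04 ± 0.14, and PSMD6, PSMD8, PSMD11, PSMD12 and PSMD13 were not called.

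The 3 genes for chaperones that assemble the base went in both directions. PSMD10 (ENSBTAG00000013721), also known as gankyrin, lay between 23.4 and 42.4 CPM in virgin (median 33.4) and between 18.8 and 27.7 CPM in lactating libraries (median 23.8). V479 and V610 were the lowest virgin libraries, and the other virgin libraries except V615 lay above every lactating one. PSMD10 fell by 0.51 on the log2 scale (SE 0.08; edgeR adjusted p = 6.44e-06), in 14 of 15 cows. PSMD9 fell by 0.51 as well (SE 0.13; adjusted p = 9.25e-04), from a median of 16.3 to 10.6 CPM.

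PSMD5 (ENSBTAG00000016952), the third of these chaperones, was the only one of the 47 genes called higher. It ranged from 9.06 to 24.3 CPM in virgin (median 13.6) and from 15.5 to 26.6 CPM in lactating libraries (median 20.9). The lactating libraries lay in the upper part of the virgin range, and 12 of 15 cows were higher in lactation. The log2 fold change was 0.46 ± 0.13 (SE; edgeR adjusted p = 0.00303), or -0.06 (adjusted p = 0.76) without TMM factors. The median of all loci in that fit was -0.55.

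**Figure D2:**
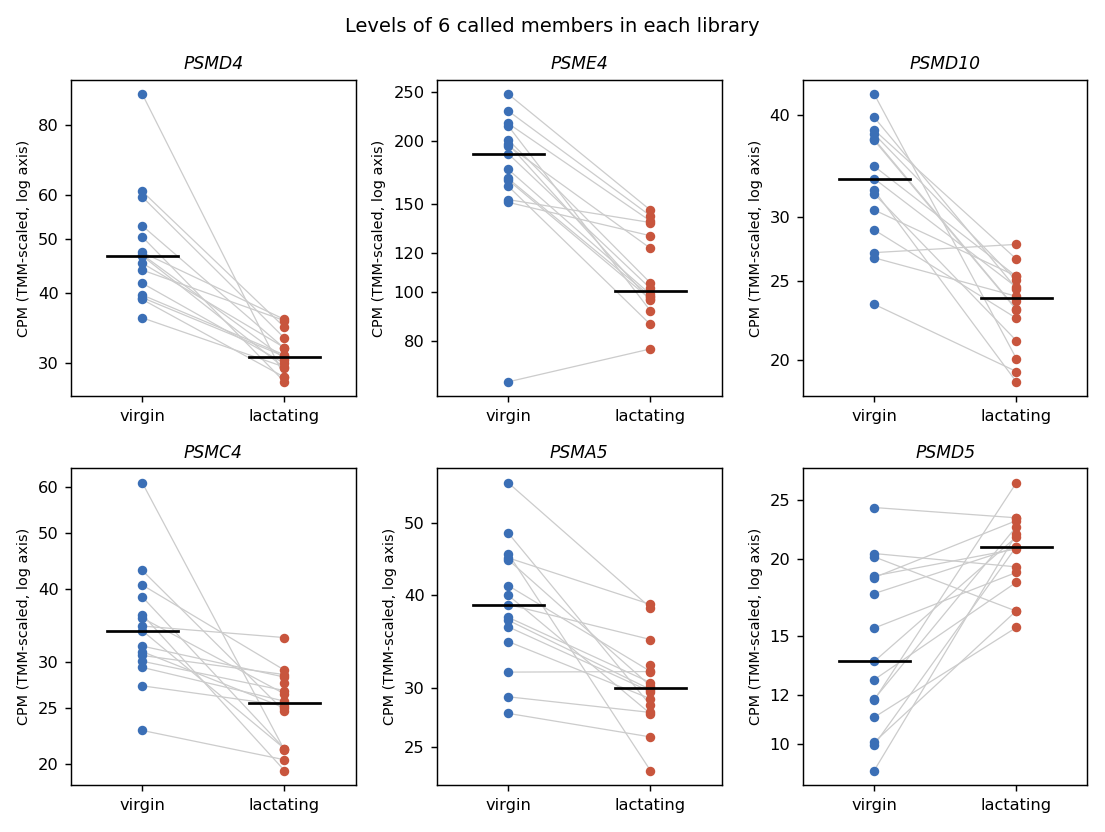
CPM (TMM-scaled, log axis) of 6 called genes in each virgin (blue) and lactating (red) library; grey lines join the libraries of 1 cow and black bars are medians. For PSMD4 every lactating library lies below every virgin one, PSME4 has 1 low virgin library (V479, 66.5 CPM), and PSMD5 is the gene called higher.

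None of the 5 immunoproteasome genes was called, and 4 of the 5 log2 fold changes were positive, with a median of 0.10; without V479 the median was 0.28, and without TMM factors all 5 were negative, with a median of -0.33. edgeR gave an unadjusted p under 0.05 for 0 of the 5, DESeq2 called 0 and limma-voom called 1, PSMB8. PSMB8 (ENSBTAG00000003039) lay between 9.47 and 66.0 CPM in virgin libraries (median 18.2) and between 17.005 and 46.0 CPM in lactating ones (median 32.7). All 16 lactating values lay within the virgin range, but 12 of 15 cows were higher in lactation, and the virgin libraries V479, V581 and V478 stood at 42.2 CPM or more. The log2 fold change was 0.36 ± 0.22 (SE; edgeR adjusted p = 0.166). With the cow as a block it was 0.56 (adjusted p = 0.0130), and without V479 it was 0.53 (adjusted p = 0.0236).

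PSMB9 (ENSBTAG00000008954) showed the widest virgin spread of all 47 genes, with an SD of log2 CPM of 1.00. It ran from 1.39 CPM in V538 to 25.2 CPM in V479 (median 5.24), against 5.33 to 11.7 CPM in lactating libraries (median 8.24) and a lactating SD of 0.22. V479, V581 and V478 exceeded every lactating library, and 8 virgin libraries lay below every lactating one. The log2 fold change was 0.06 ± 0.29 (SE; edgeR adjusted p = 0.886), with a 95% interval of -0.53 to 0.64. It was 0.28 without V479 (adjusted p = 0.369) and 0.50 with the cow as a block (adjusted p = 0.112).

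PSMB10 ranged from 11.5 to 52.5 CPM in virgin (median 14.7) and from 14.5 to 26.6 CPM in lactating libraries (median 21.9). Its lactating values lay within the virgin range, and 12 of 15 cows were higher. The log2 fold change was 0.16 ± 0.18 (SE; edgeR adjusted p = 0.465), and 0.35 without V479 (adjusted p = 0.0317). PSME1 and PSME2, the subunits of the alternative cap, stood at -0.20 ± 0.15 and 0.10 ± 0.13, with virgin medians of 66.8 and 34.9 CPM and lactating medians of 72.5 and 41.8 CPM. Without V479 they stood at -0.05 and 0.21, neither called. V479 was the highest virgin library for all 5 genes. L538, the library with the lowest milk share, was the lowest lactating library for 4 of the 5.

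Because each immunosubunit takes the place of a constitutive one, the log2 ratio of their counts was compared within libraries, which needs no scaling of library totals. Levels of the 2 genes in a ratio are counts, not corrected for length, so only the difference between stages can be read. PSMB8/PSMB5 averaged -0.97 ± 0.68 (SD, n = 15) in virgin and -0.28 ± 0.36 (SD, n = 16) in lactating libraries. The difference of 0.69, a 1.62-fold higher ratio, had an adjusted permutation p of 0.00408 (two-sided, 100000 resamples, adjusted over the 3 ratios), and the ratio was higher in 14 of 15 cows, the exception being the cow of V478. It ran from -2.04 (V538) to 0.42 (V478) in virgin and from -1.18 (L538) to 0.12 (L479) in lactating libraries. The 7 lowest values of all 31 were virgin, and V478 was the 1 virgin library above every lactating one.

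PSMB10/PSMB7 averaged -1.24 ± 0.48 (SD, n = 15) in virgin and -0.80 ± 0.22 (SD, n = 16) in lactating libraries. The difference of 0.43, a 1.35-fold higher ratio, had an adjusted permutation p of 0.00433, and 12 of 15 cows were higher. The 10 lowest values of all libraries were virgin. PSMB9/PSMB6 averaged -2.59 ± 0.99 (SD, n = 15) and -2.14 ± 0.26 (SD, n = 16), a difference of 0.46 that did not pass (adjusted permutation p = 0.083), with 10 of 15 cows higher. Without V478 this difference was 0.59 (adjusted permutation p = 0.0129), without V490 0.54 (0.0363) and without V581 0.54 (0.0388). Those 3 were the virgin libraries above every lactating one. Leaving out V538, the lowest virgin library, gave 0.325 (adjusted permutation p = 0.169). These permutations did not pair the libraries of a cow. Exact sign-flip tests over the 15 pairs gave adjusted p-values of 0.00714 for PSMB8/PSMB5, 0.0137 for PSMB10/PSMB7 and 0.0634 for PSMB9/PSMB6.

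The PSMB5 and PSMB6 loci are 6.69 and 44.7 times the RefSeq length of these genes, so their counts may hold reads of neighbours. With PSMB7, whose locus has the RefSeq length, as the denominator of all 3 ratios, an alternative chosen after seeing the data, the differences were 0.67, 0.61 and 0.43, with adjusted permutation p-values of 0.00429, 0.0253 and 0.00429. For PSMB10 this is the same ratio as before, so only the PSMB8 and PSMB9 ratios had another denominator here.

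**Figure D3:**
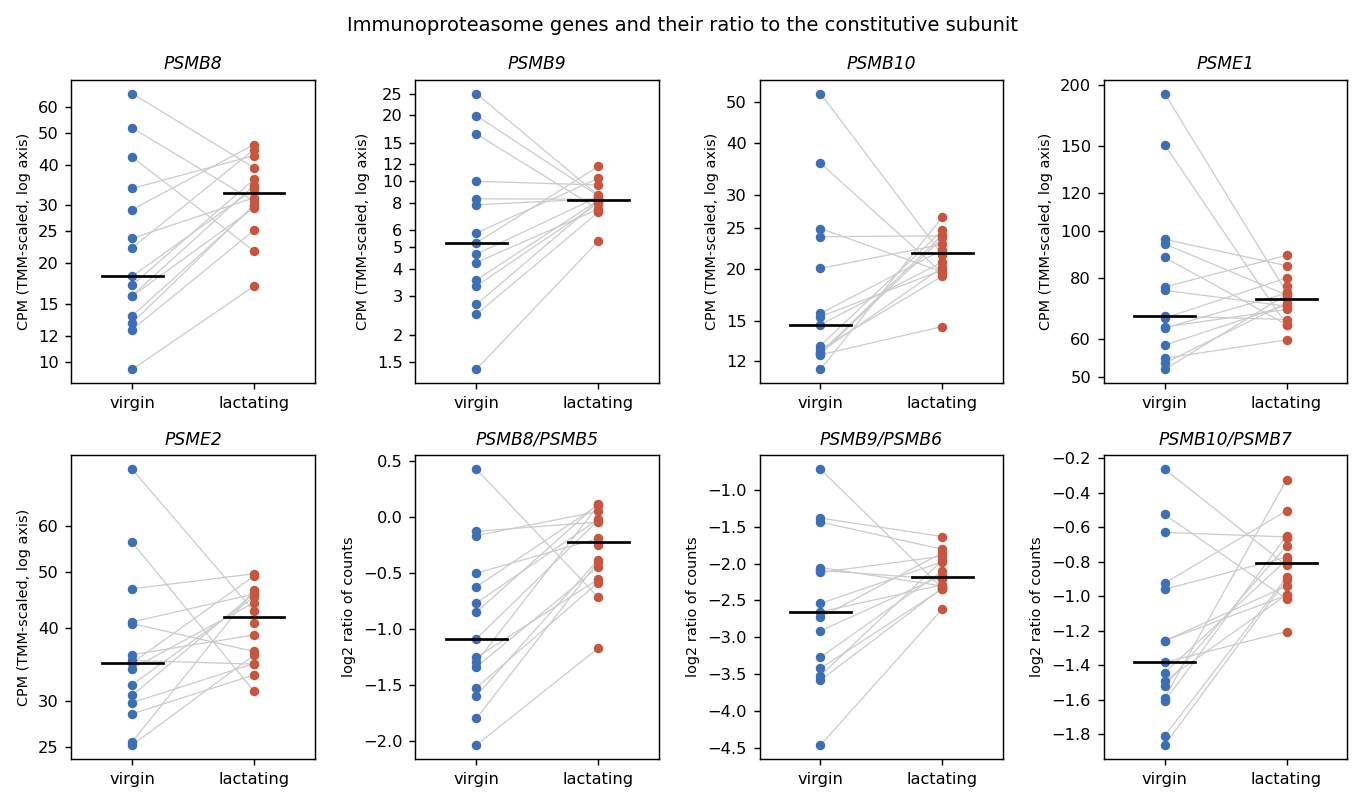
CPM (TMM-scaled, log axis) of the 5 immunoproteasome genes and the log2 count ratios PSMB8/PSMB5, PSMB9/PSMB6 and PSMB10/PSMB7 in each virgin (blue) and lactating (red) library; grey lines join the libraries of 1 cow and black bars are medians. Virgin values spread more widely than lactating ones in every panel, and the lactating medians of the ratios lie higher (-0.23, -2.19 and -0.81 against -1.09, -2.65 and -1.38).

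Leukocytes also transcribe these genes, and leukocyte markers moved with stage. All 15 tested leukocyte genes were higher in lactation, with a median log2 fold change of 1.62, and 0 were lower. For this and the other cell types below, the shares of all tested loci were 23.8% higher and 31.3% lower. The summed level of the 15 leukocyte genes was 35.1 to 205 CPM in virgin (median 76.3) and 272 to 959 CPM in lactating libraries (median 466), with no overlap. PTPRC (CD45) had medians of 13.1 and 41.3 CPM and CD3E 3.94 and 14.4 CPM. CD14 made up 63.8% of the lactating sum at the median, and its counted locus is 25.9 times its RefSeq length. In bulk RNA, more cells of a type and more RNA per cell cannot be told apart. Markers of other cells moved as well: 6 of 6 endothelial loci were higher, 2 of 10 luminal genes were higher and 6 lower, 2 of 6 basal loci were higher and 2 lower, and 1 of 7 fibroblast genes was higher and 4 lower. With the cow as a block, 3 of the 4 fibroblast and 2 of the 6 luminal genes called lower were not called, and LUM (fibroblasts) and ACTA2 (basal) were gained. Their part in the changes of the proteasome genes was not tested.

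Within the lactating libraries, the log2 level of the leukocyte sum was related to PSMB8 (Pearson r = 0.745, permutation adjusted p = 0.0073; Spearman rho = 0.697, adjusted p = 0.0124; n = 16), PSMB9 (r = 0.68, adjusted p = 0.00887; rho = 0.768, adjusted p = 0.0086) and PSME1 (r = 0.722, adjusted p = 0.00825; rho = 0.694, adjusted p = 0.0124). These p-values were adjusted over 10 relations, 5 genes in 2 stages. For PSMB10 (r = 0.502, rho = 0.388) and PSME2 (r = 0.443, rho = 0.459) they did not pass. Without L507 and L479, the 2 libraries farthest from the median sum, r was 0.669, 0.694 and 0.665 for PSMB8, PSMB9 and PSME1. With PTPRC alone in place of the sum, none of the 10 relations passed, and r was 0.267, 0.429 and 0.176 for those 3 genes. With CPM over raw library totals none passed either, and r was 0.534 (adjusted p = 0.17), 0.473 (adjusted p = 0.213) and 0.305 (adjusted p = 0.418).

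Within the virgin libraries none of the 5 relations passed. Pearson r ran from 0.251 for PSMB9 to 0.561 for PSME2 and Spearman rho from 0.168 for PSMB10 to 0.457 for PSME2 (n = 15). Without V509 and V479, r ran from -0.0397 to 0.294. V478, among the 3 highest virgin libraries for PSMB8 and PSMB9, had the lowest leukocyte sum of all, at 35.1 CPM. The part of leukocytes in the immunoproteasome levels was not tested.

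**Figure D4:**
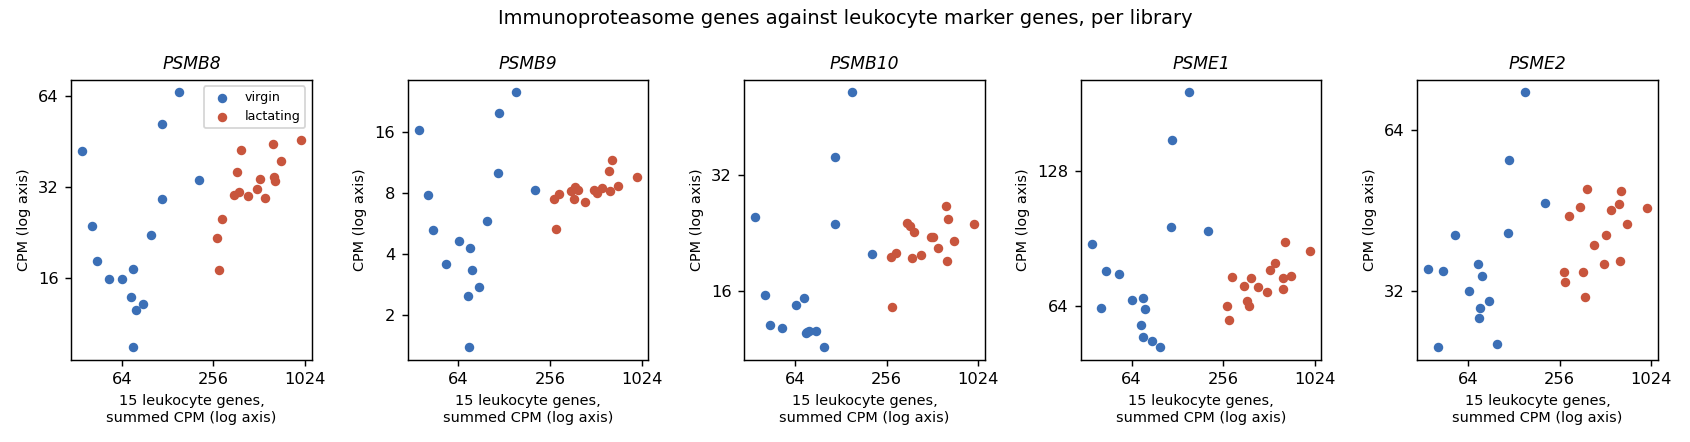
CPM of each immunoproteasome gene (vertical, log axis) against the summed CPM of 15 leukocyte genes (horizontal, log axis), 1 point per library, virgin in blue and lactating in red. The sums do not overlap between stages (35.1 to 205 against 272 to 959 CPM), whereas the virgin libraries span the whole lactating range of each gene.

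Among the other activators and assembly factors, PSME4 showed the largest fall of all 47 genes. PSME4 (ENSBTAG00000020262) encodes PA200, a nuclear cap that works without ATP or ubiquitin. It lay between 66.5 and 247 CPM in virgin (median 188) and between 77.3 and 146 CPM in lactating libraries (median 100.5). V479 was the 1 low virgin library; the next, V581, stood above every lactating one. PSME4 fell by 0.72 on the log2 scale (SE 0.13; edgeR adjusted p = 1.31e-05), in 14 of 15 cows, and by 0.78 without V479 (adjusted p = 3.97e-08). Without V479, PSME4 joined PSMD4 among the genes whose stages did not overlap. In that setting 1.53% of all tested loci had every lactating library below every virgin one.

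Of the chaperones that build the alpha ring, PSMG2 was called lower, at -0.42 ± 0.15 (SE; edgeR adjusted p = 0.0185), with medians of 16.5 CPM in virgin and 13.4 CPM in lactating libraries; without V468 the adjusted p was 0.0504. Its partner PSMG1 stood at -0.28 (adjusted p = 0.0767), or -0.34 without V479 (adjusted p = 0.0132), and its counts are also listed under BRWD1 over a locus 10.8 times the RefSeq length. PSMG3 (-0.23) and PSMG4 (-0.58, adjusted p = 0.0713) were not called, and V479 alone held 115 CPM of PSMG4 against a virgin median of 14.4. Without V479 the log2 fold change of PSMG4 was -0.12. PSME3, the nuclear activator PA28-gamma, stood at 0.09 ± 0.12 over a locus shared with the amine oxidase genes AOC2 and AOC3. The inhibitor PSMF1 stood at 0.13 ± 0.18, and at 0.36 without V479 (adjusted p = 0.0165). PSMC3IP, at medians of 1.31 and 0.858 CPM, was called lower (-0.66 ± 0.18, adjusted p = 0.00278).

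The authors' deposited table of differential expression called 3 of the 47 genes, all lower in lactation: PSMD4 (log2 fold change -0.62, q = 2.30e-04), PSME4 (-0.69, q = 0.00304) and PSMD10 (-0.48, q = 0.0225). All 3 were also called here.

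The spread among cows differed between the stages. The SD of log2 CPM was larger in virgin than in lactating libraries for 46 of 47 genes, with medians of 0.42 and 0.21; over all loci it was larger for 86.4%. Without V479 it was larger for 43 of 47, against 79.0% of all loci. Within stages, the immunoproteasome genes varied together. The median Pearson r over their pairs was 0.88 in virgin and 0.67 in lactating libraries, and PSMB8 with PSMB9 reached 0.98 and 0.71. Core genes had median pairwise r of 0.38 in virgin, 0.61 in virgin without V479, and 0.62 in lactating libraries. PSME4 ran opposite to PSMB8, with r of -0.79 in each stage, and together with PSMD14, with r of 0.88 and 0.84. With PSMD12 its r was 0.83 in virgin and 0.86 in lactating libraries. Other pairs differed between stages. PSME4 with PSMB4 had r of -0.81 in virgin (-0.24 without V479) and 0.39 in lactating libraries. With PSMF1 it was -0.89 in virgin (-0.70 without V479) and -0.18 in lactating libraries. These correlations over 15 and 16 libraries are descriptions, since all genes of a library share its depth, scaling and RNA.

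**Figure D5:**
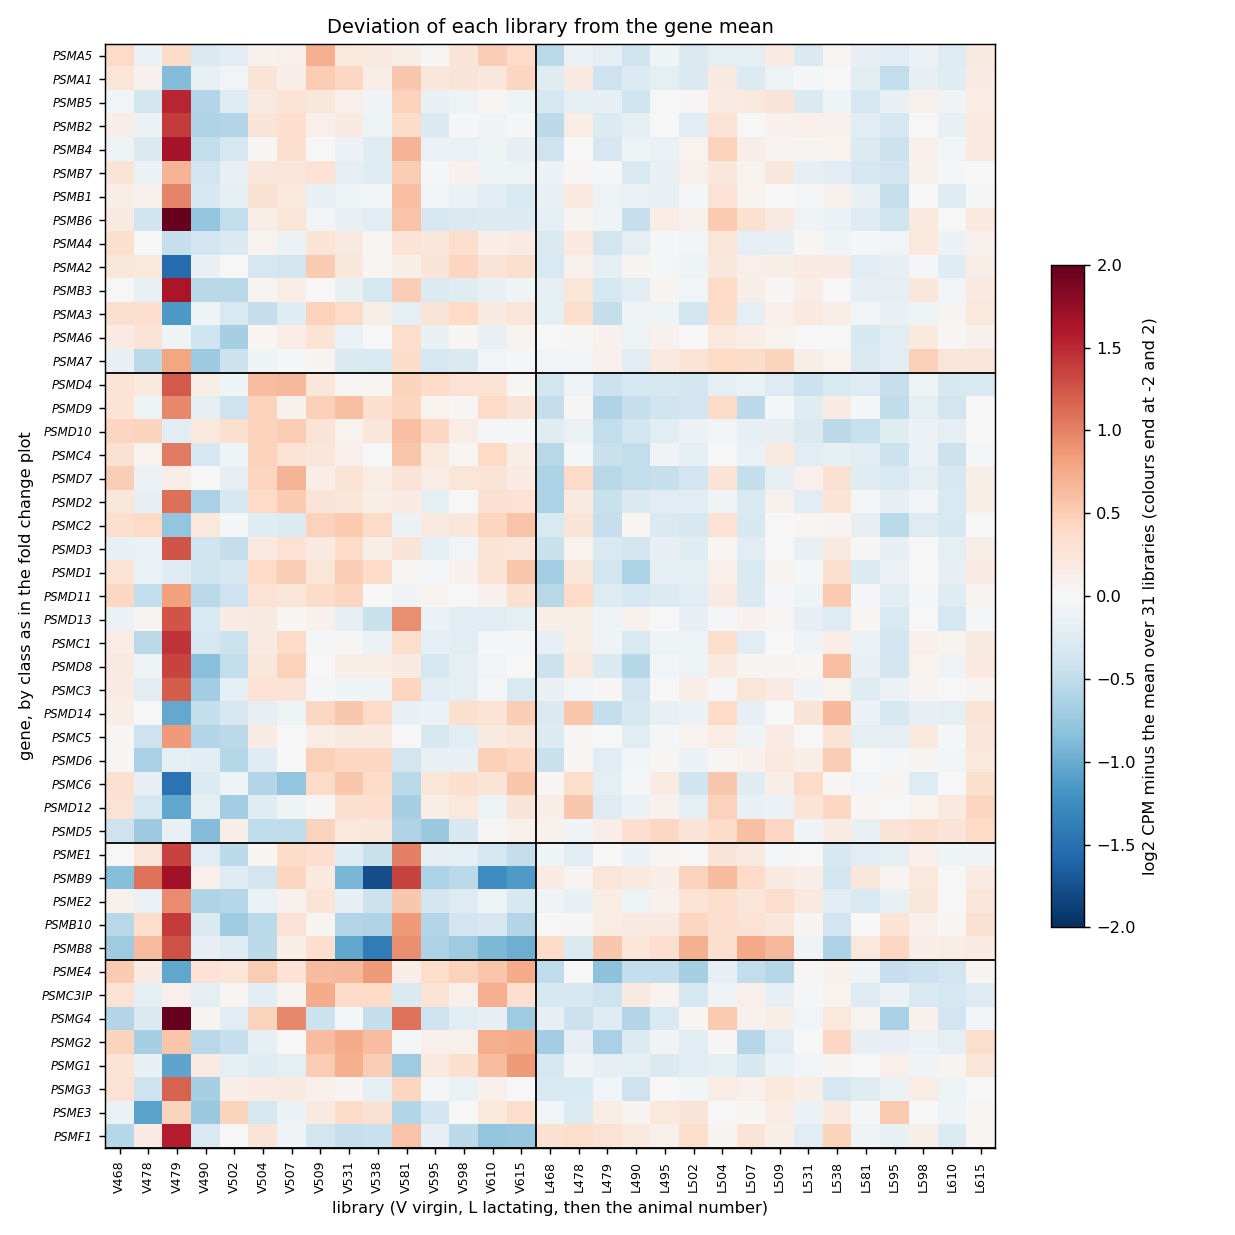
Log2 CPM of each gene (rows, by class) in each library (columns, virgin then lactating) minus the mean of the gene over all 31 libraries; red is higher and blue lower. V479 differs from the other virgin libraries in both directions, and PSMB8 and PSMB9 are high in V478, V479 and V581 and low in V531, V538, V610 and V615.

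Partners outside these gene families were described from fixed lists. Of 11 tested genes for proteasome partners, 3 were higher, 2 lower and 6 not called, and without TMM factors 1 was higher and 5 lower. Over all tested loci 23.8% were higher and 31.3% lower, and without TMM factors 10.3% and 57.9%. AKIRIN2, which carries the proteasome into the nucleus, ranged from 50.6 to 77.1 CPM in virgin and from 92.7 to 188 CPM in lactating libraries. The stages did not overlap, and the log2 fold change was 0.94 ± 0.10 (SE; edgeR adjusted p = 2.86e-09), higher in 15 of 15 cows. Every lactating library lay above every virgin one for 1.22% of all tested loci. Without TMM factors AKIRIN2 stood at 0.51 (adjusted p = 0.00707). TXNL1, a thioredoxin-like protein of the cap, rose by 0.49 (adjusted p = 3.79e-04), and stood at 0.0018 without TMM factors. The deubiquitinase USP14 was called lower at -0.26 (adjusted p = 0.0313; 0.0539 with the cow as a block). POMP, which matures the beta ring, and the ubiquitin receptor ADRM1 stood at 0.12 and 0.04 and were not called.

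Of 11 genes that control proteasome genes, 3 were higher, 3 lower and 5 not called, and without TMM factors 0 were higher and 4 lower. The shares of all tested loci were 23.8% higher and 31.3% lower, and without TMM factors 10.3% and 57.9%. NFE2L1, the factor that induces proteasome genes when proteasome activity is limiting, rose by 0.34 ± 0.09 (SE; edgeR adjusted p = 0.00144) and NFE2L2, the factor of the oxidative stress response, by 0.80 ± 0.14 (adjusted p = 1.02e-05). Without TMM factors they stood at -0.14 and 0.34, neither called. MAFK, a small partner of both, fell by 1.20 on the log2 scale (adjusted p = 1.36e-06), and NGLY1, which processes NFE2L1, by 0.49 (adjusted p = 3.45e-04). Of 12 genes for ubiquitin and its delivery, 1 was higher, 4 lower and 7 not called. Without TMM factors 0 of the 12 were higher and 10 lower. UBB rose by 0.82 ± 0.23 (adjusted p = 0.00325), and stood at 0.38 without TMM factors (adjusted p = 0.11). NPLOC4, which hands substrates from VCP onward, fell by 0.46 (adjusted p = 5.62e-05), in 15 of 15 cows, and UBQLN2, a shuttle to the proteasome, by 0.59 (adjusted p = 1.64e-05).

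Of 11 loci for class I antigen processing, 4 were higher, 2 lower and 5 not called, and without TMM factors 2 were higher and 4 lower. All tested loci stood at 23.8% higher and 31.3% lower, and without TMM factors at 10.3% and 57.9%. TAP1 and TAP2, the peptide transporter, were counted as 1 locus that rose by 0.74 ± 0.12 (SE; edgeR adjusted p = 7.21e-06), or 0.26 without TMM factors (adjusted p = 0.0764). That locus is 5.06 times the RefSeq length of TAP1, so its counts may also hold reads of other neighbours. B2M, the light chain of class I, with a counted locus 2.49 times as long as in RefSeq, rose by 0.87 ± 0.17 (adjusted p = 7.44e-05) and NLRC5, a transactivator of class I genes, by 1.17 ± 0.21 (adjusted p = 2.78e-05). The chaperones CANX and PDIA3 fell by 0.47 and 0.48. Across libraries of a stage, the TAP locus had r of 0.91 in virgin and 0.80 in lactating libraries with PSMB8. Of 14 genes for interferon signalling, 9 were higher, 0 lower and 5 not called, beside 23.8% of all loci higher and 31.3% lower. Without TMM factors 4 were higher and 4 lower. IRF1, an inducer of immunosubunit genes, rose by 2.40 ± 0.17 (adjusted p = 9.25e-13), from 57.3 to 175 CPM in virgin to 245 to 776 CPM in lactating libraries, with no overlap. Such a gap in the higher direction was held by 1.22% of all tested loci. IRF1 stood at 1.86 without TMM factors (adjusted p = 4.51e-12). The median log2 fold change was 0.67 over these 14 genes, 0.21 over the class I loci and 0.10 over the 5 immunoproteasome genes (0.28 without V479), beside -0.09 for all loci.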

How the data were processed

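Poly-A RNA of 31 organoid libraries was sequenced from strand-specific libraries, per the labels' protocols. The authors deposited whole-number read counts per gene, with no normalization, and a second table of RPKM values with log2 fold changes and p-values adjusted for multiple tests (q). In that table a positive log2 fold change is higher in virgin libraries, and its sign is turned here. Per the submitters' processing notes, HISAT2 2.0, StringTie 1.3.2, featureCounts 1.5.2, SAMtools, edgeR and build UMD3.1 were used, with roles and settings not given in the sources used. The length behind the deposited RPKM is the genomic span of the locus, introns included, and so levels are not compared between genes. Spans were set against RefSeq (assembly ARS-UCD2.0) by symbol, found for 47 of 47 genes; no coordinates are printed, as the builds differ. Of the 47 genes, 8 had a span over 2 times that of RefSeq, and 4 shared identical counts with another listed gene.

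Counts were analysed with edgeR 4.0.16 in R 4.3.3: identical rows taken once, filterByExpr (minimum count 10, minimum total 15), TMM, glmQLFit (robust) and glmQLFTest with stage as the only term, Benjamini-Hochberg adjusted over 12472 loci. SE is the log2 fold change divided by the square root of F. The step was tested on simulated data. Ratios used log2 of counts with 1 added, and correlations log2(CPM + 1), with permutation tests in Python 3.11.15. Replicate numbers are cows, so they pair the libraries, per the series design: own-cow libraries correlated at 0.0244 to 0.393 after removal of stage means, 11 of 15 over 0.1. The mean was 0.212 for own-cow libraries and -0.0156 for libraries of different cows. The own-cow library was the best match for 7 of 15. No 2 libraries of a stage agreed within sampling noise.

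Alternatives were other scalings and filters, DESeq2 1.42.0, limma-voom (limma 3.58.1), the cow as a block, libraries left out, and a 2-fold threshold. All 47 genes and, from each list, a fixed set and the 3 others with the smallest p could be named. The members and lists were chosen with earlier results of these data known. The listed genes SEM1, ECPAS, UFD1, CD79B, MS4A1 and ITGAX were not analysed here.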

Additional observations from a re-analysis of the deposited data

How the results depend on the processing

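Without TMM factors the genes called lower numbered 13 in the core, 17 in the cap, 2 in the immunoproteasome and 7 among the others, with 0 cap genes higher. All 12 positive log2 fold changes among the 47 genes turned negative. Of these, PSMA6 (-0.46), PSMD5 (-0.060), PSMD6 (-0.47), PSME2 (-0.36) and PSME3 (-0.41) were called in 1 of the 2 fits, each still above the median of all loci without TMM factors (-0.55). For a change over 2-fold (glmTreat) every class had 0 calls. Without the 5 cows whose virgin label carries a letter, 1 core gene and 5 cap genes were lower. With the replicate block, the core and the immunoproteasome had 1 gene higher each (PSMA7 and PSMB8), as with limma-voom. The block ended the calls of PSMD2 and PSMD3 and changed no other call among the 47 genes. Calls over all loci moved too: with the block 3472 of 12447 were higher and 3427 lower, against 2970 and 3900 of 12472 in the main fit. The median of all loci was -0.009 with the block and -0.089 in the main fit. With each library left out in turn, genes called higher numbered 0 to 1 in the core, 1 to 2 in the cap (2 without V468), 0 to 2 in the immunoproteasome (2 without V479) and 0 to 1 among the others (1 without V479), and the PSMB9/PSMB6 difference was 0.325 to 0.592. With PSMB7 as denominator, chosen after seeing the data, that difference was 0.608. The lactating correlations of PSMB8, PSMB9 and PSME1 with leukocyte genes were 0.267, 0.429 and 0.176 with PTPRC alone, and 0.534, 0.473 and 0.305 over raw library totals, none of them passing. The cause of these shifts was not tested. RLE factors, DESeq2 and both low-count filters gave 1 gene higher and 14 lower of 47. Totals of 12477568 counts or more left no gene undetected, the lowest being PSMC3IP at 0.611 CPM.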
